A study of Rattus norvegicus with 2 samples.

Results

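The genes described here encode AP-1 and immediate early transcription factors: the Jun family (Jun, Junb, Jund), the Fos family (Fos, Fosb, Fosl1, Fosl2), the related leucine zipper factors Atf3 and Maff, and the zinc finger factor Egr1. They were chosen by name, with earlier results of these data known. All 10 listed genes were on the array, each with 1 probe set that carries exactly 1 gene symbol, out of 22093 genes so named. Their signals were measured in RNA of newborn rat epidermal keratinocytes, called NRK cells in the labels, which were kept in culture in medium with 10% fetal bovine serum, hydrocortisone and antibiotics. The cells of the RA array received 5 µM all-trans retinoic acid (RA), a vitamin A metabolite that acts through nuclear receptors, from a stock in dimethyl sulfoxide that was diluted into 1000 volumes of medium. The array without RA is titled only by day 5, its description reads the same as that of the RA array, and it was taken for the vehicle control named in the design text. Medium was changed every 24 h, and both arrays hold RNA of day 5. The labels do not give the time between the last medium change and the harvest, nor the number of cultures behind an array. There was 1 array per group, so no value has a replicate, an error or a test.

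AP-1 is a dimer of a Jun protein with a Fos, Jun or ATF protein, joined by leucine zippers, that binds a short palindromic DNA element in target promoters and enhancers. Many of its genes, with Egr1, are immediate early genes: serum, growth factors and stress turn on their transcription within minutes through MAP kinases and without new protein synthesis, and their mRNAs are short-lived. In epidermis, AP-1 proteins take part in proliferation, wound repair and the transcription of differentiation genes such as involucrin. Ligand-bound RA receptors are known to oppose AP-1 activity in other cell systems.

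The promoters of Egr1 and Fosl2, which were lower with RA, and of Jund and Junb, which differed little, are shown so that their known response elements can be read beside the values. The windows run from 250 bases before the start of the gene to 50 bases after it, 5′ to 3′ on the gene's strand, and come from the RefSeq promoter table of assembly GRCr8, in which 7 of the 10 genes were matched. Jun, Fos and Atf3 had no window, so the counts of elements in member windows say nothing of these genes. Capitals mark the AP-1 element (TGACTCA), the cyclic AMP response element (TGACGTCA), the shorter letters TGACG that it contains, the CArG box bound by serum response factor, the EGR element (GCGTGGGCG or GCGGGGGCG) and the TATA element (TATAAA). Both strands were searched. Egr1 lies at chr18:26736828-26737127 (plus strand), Fosl2 at chr6:30039220-30039519 (minus strand), Jund at chr16:18769722-18770021 (minus strand) and Junb at chr19:40080876-40081175 (plus strand).
Egr1: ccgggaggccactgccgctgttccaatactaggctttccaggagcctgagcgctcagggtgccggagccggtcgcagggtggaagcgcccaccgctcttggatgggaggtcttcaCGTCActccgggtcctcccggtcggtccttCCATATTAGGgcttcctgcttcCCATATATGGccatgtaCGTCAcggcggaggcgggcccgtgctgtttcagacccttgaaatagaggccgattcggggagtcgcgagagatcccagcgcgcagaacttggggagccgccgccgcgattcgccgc
Fosl2: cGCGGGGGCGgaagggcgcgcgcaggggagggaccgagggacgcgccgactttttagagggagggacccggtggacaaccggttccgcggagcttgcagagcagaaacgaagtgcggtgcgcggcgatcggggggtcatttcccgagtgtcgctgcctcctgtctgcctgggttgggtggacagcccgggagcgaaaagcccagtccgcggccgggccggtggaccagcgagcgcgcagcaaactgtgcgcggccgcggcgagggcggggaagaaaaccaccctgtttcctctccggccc
Jund: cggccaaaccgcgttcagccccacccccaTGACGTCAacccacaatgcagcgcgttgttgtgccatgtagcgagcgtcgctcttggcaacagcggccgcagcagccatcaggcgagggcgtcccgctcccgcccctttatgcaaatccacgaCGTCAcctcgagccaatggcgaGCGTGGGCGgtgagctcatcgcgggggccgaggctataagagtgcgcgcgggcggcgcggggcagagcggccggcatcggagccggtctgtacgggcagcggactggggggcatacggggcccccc
Junb: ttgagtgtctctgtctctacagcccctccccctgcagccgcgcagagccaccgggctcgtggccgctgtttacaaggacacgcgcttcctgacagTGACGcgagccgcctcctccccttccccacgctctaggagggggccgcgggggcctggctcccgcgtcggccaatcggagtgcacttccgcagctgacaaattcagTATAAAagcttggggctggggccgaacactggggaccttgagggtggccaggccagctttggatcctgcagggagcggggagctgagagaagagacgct

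The Egr1 window held 2 CArG boxes, from -105 to -96 and from -83 to -74 relative to the start. A CArG box was present in 1.64% of all 33469 promoter windows. Egr1 also held the letters TGACG on its opposite strand at -135 to -131 and at -66 to -62, as 21.2% of all windows did at least in 1 place. The Fosl2 window held an EGR element from -249 to -241, of the form found in 2.73% of all windows. Jund held the cyclic AMP response element at -221 to -214 (1.83% of all windows), TGACG on its opposite strand at -98 to -94 and the other form of the EGR element at -76 to -68 (0.544%). Junb held TGACG at -155 to -151 and a TATA element at -49 to -44, whose letters were present in 14.2% of all windows. The AP-1 element occurred in 0 of the 7 member windows and in 4.63% of all windows. Direct repeats of the RA response element type, spaced by 1, 2 or 5 bases, also occurred in 0 of the 7, against 0.233%, 0.17% and 0.382% of all windows. The member windows printed here were rich in G and C (64.7% in Egr1, 70.7% in Fosl2, 69.7% in Jund and 65.3% in Junb, against a median of 51.7% over all windows). These matches describe the letters of the windows and are not measured binding sites.

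After 5 days, 3 of the 10 genes were lower with RA by 2-fold or more and 0 were higher by as much. They were Jun, Egr1 and Fosl2, which code for the founding Jun protein, a zinc finger factor outside AP-1 and the Fos-related protein Fra-2. Across the 14274 genes above the floor, the share lower by 2-fold or more was 5.63% and the share higher by as much 7.88%. The floor is a log2 signal of 3.81, the median over the whole table, and a gene counts as above it where its higher array reaches it, which all 10 members did. The floor does not mark detection, since the median of the negative control probe sets was 4.47 with RA and 4.57 without RA. At 1.5-fold the members numbered 4 lower and 0 higher as deposited, against 12.3% and 13.9% of all genes, and 3 lower under each of 3 other scalings, where Fos no longer passed. At 4-fold they numbered 2 lower and 0 higher, against 2% and 3.05% of all genes, and 1 lower after a lowess curve was removed, where Egr1 no longer passed. The median difference of the members was -0.066 log2 units, beside -0.026 over all genes above the floor. The members therefore split into a few genes that were lower and 7 whose differences lay between -0.61 and 0.34. A difference here is always the log2 signal with RA minus that without RA, and folds apply to the deposited scale. In RNA of whole cultures, fewer cells of a type and less RNA per cell cannot be told apart.

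Values on these arrays have a spread that bears on each difference. The 92 ERCC spike sequences, whose medians of 3.29 with RA and 3.28 without RA lay under the floor, had a central 95% of differences from -0.43 to 0.25. The 399 rat positive control probe sets, with a median signal of 10.28 with RA and 10.24 without RA, ran from -1.72 to 2.14. The 1153 rat negative controls ran from -2.17 to 2.01, and 15.7% of them were lower by 2-fold or more. This share is larger than that of the genes above the floor, but the controls were not filtered by the floor. What lay behind the wider range of these controls than of the ERCC sequences was not tested. Fosb and Maff lay under the medians of these negative controls on both arrays, and Atf3 within 0.3 log2 units of them. The differences of Jun and Egr1 lie beyond the lower end of the positive control range and within that of the negative controls, and that of Fosl2 lies within both. Values reached 19.93 on both arrays, above the log2 ceiling of 16 of a scanner image, so the deposited scale was stretched. Of the genes that differed by at least 2-fold, 58.3% were higher with RA, and 69.3% after a lowess curve was removed.

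**Figure D1:**
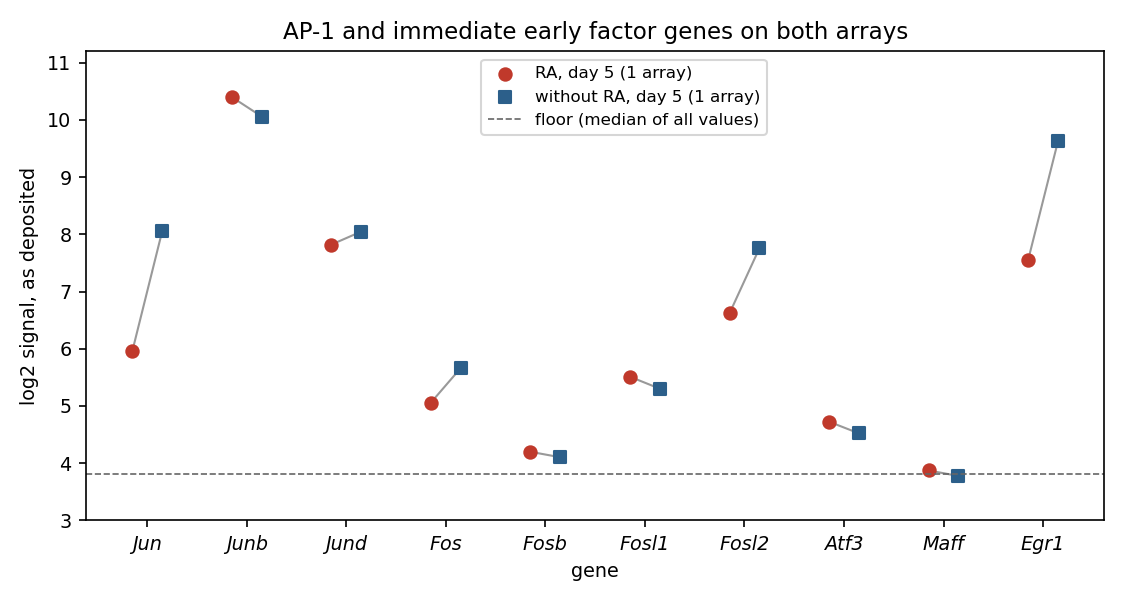
Log2 signal as deposited (vertical axis) of the 10 genes, with the RA array as red circles on the left and the array without RA as blue squares on the right of each pair, 1 array each, and the floor of 3.81 as a dashed line. Jun, Fosl2 and Egr1 sit lower with RA, while Fosb, Atf3 and Maff stay within 1 log2 unit of the floor on both arrays, and heights of different genes are not comparable because each probe set has its own response.

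Within the Jun family, Jun was lower with RA and its relatives were close on both arrays. Jun, whose protein is the usual partner of Fos proteins and a driver of keratinocyte proliferation, had a log2 signal of 5.95 with RA and 8.05 without RA. The difference of -2.10 log2 units corresponds to 4.27-fold lower signal with RA. Of all genes above the floor, 1.86% were as far lower or further, and 1.94% of the 3912 genes whose mean signal lay within 1 log2 unit of that of Jun.

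Junb, whose protein pairs with the same Fos proteins but often restrains proliferation, had 10.40 with RA and 10.06 without RA. Its difference of 0.34 was the highest of the 10 members, and 21.2% of all genes above the floor were at least as far higher. Jund, the most steadily expressed Jun gene in most tissues, had 7.82 with RA and 8.05 without RA, a difference of -0.23. Jun and Junb were thus on opposite sides of 0, and with 1 array per group the gap between their differences could not be tested.

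Within the Fos family, Fosl2 was lower with RA by over 2-fold, and the other 3 genes were not. Fosl2 codes for Fra-2, a Fos-related protein that lacks the strong activation domain of Fos and is present in differentiating keratinocytes. It had a log2 signal of 6.62 with RA and 7.76 without RA. This is a difference of -1.14, or 2.20-fold lower, which is just past the 2-fold threshold. Of all genes above the floor, 4.67% were as far lower, and 6.20% of the 3806 genes within 1 log2 unit of its mean signal.

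Fos, the founding member and the textbook immediate early gene, had 5.06 with RA and 5.66 without RA. Its difference of -0.61 passed 1.5-fold as deposited but not under the 3 other scalings (-0.56 to -0.53), and 11.8% of all genes were as far lower. Fosl1, which codes for Fra-1, a Fos-related protein linked to migration in epithelial cells, had 5.51 with RA and 5.30 without RA, a difference of 0.21. Fosb, best known from neurons, had 4.20 with RA and 4.10 without RA, at most 0.39 log2 units above the floor. The 3 Fos family genes other than Fosl2 therefore differed by less than 1 log2 unit. The signal of Fosb was too near the floor for a fall to be read from it.

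The 2 leucine zipper relatives outside the Jun and Fos families lay near the floor. Atf3, a stress-induced factor that can repress or activate as a dimer, had 4.72 with RA and 4.52 without RA, a difference of 0.20. Maff, a small Maf protein with no activation domain of its own, had 3.87 with RA and 3.78 without RA, the second value being under the floor. Signals this low may be background, so a fall in these genes could not be read here. Neither gene was higher with RA by 2-fold or more.

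Egr1, whose protein binds GC-rich elements and responds to the same growth factor signals as Fos, had a log2 signal of 7.55 with RA and 9.63 without RA. The difference of -2.08 corresponds to 4.22-fold lower signal with RA. Of all genes above the floor, 1.88% were as far lower. Among the 2569 genes within 1 log2 unit of its mean signal the share was 3.97%. Its 2 CArG boxes, the elements through which serum response factor acts, are those printed in capitals above. Srf itself, the gene of that factor, had 7.72 with RA and 8.10 without RA, a difference of -0.38.

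**Figure D2:**
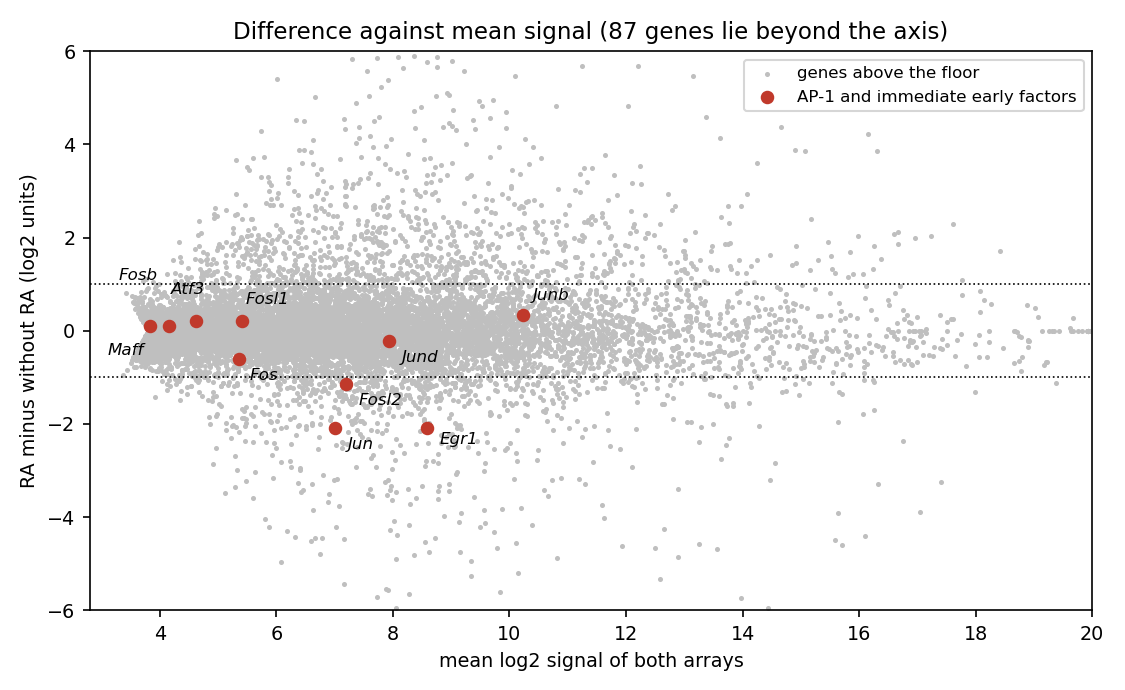
Difference RA minus without RA in log2 units (vertical axis) against the mean log2 signal of both arrays (horizontal axis) for 14274 genes above the floor in grey and the 10 members in red, with dotted lines at 2-fold. Jun and Egr1 sit near -2 at middle signal, Fosl2 just past the lower line, the other 7 between the lines, and 87 genes lie beyond the limits of 6 log2 units.

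The genes nearest to Jun in their signals on both arrays, by Euclidean distance over 2 arrays only, were the pseudogene Akr1b8-ps2, Ulk1 (a kinase of autophagy), Olfml3 and Itpkc (an inositol trisphosphate kinase), at distances of 0.043, 0.054, 0.088 and 0.18 log2 units. Those nearest to Junb were Ube2v1, Smurf2, Sbno1 and Dazap2, at 0.044, 0.044, 0.072 and 0.078. Such likeness rests on 2 values per gene.

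Among 24 other leucine zipper genes above the floor that pair with AP-1 proteins or relate to them, 1 was higher with RA by 2-fold or more and 2 were lower by as much, with a median of -0.069. These shares, 4.17% and 8.33%, are near those of all genes. Jdp2, which codes for a Jun dimerization protein that represses AP-1 targets, had 6.71 with RA and 4.66 without RA, a difference of 2.05. Maf, a large Maf factor, had 5.59 with RA and 7.87 without RA, a difference of -2.28. Bach1, a repressor that pairs with small Maf proteins such as Maff, had 8.76 with RA and 10.57 without RA, a difference of -1.80. Jdp2 and Jun thus lay about as far from 0 in opposite directions.

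Other immediate early genes differed in both directions. At 2-fold, 6 of 33 above the floor were higher with RA and 5 were lower, and the median was -0.003. Both shares, 18.2% and 15.2%, were above the 7.88% and 5.63% of all genes. Dusp1, a phosphatase that switches off MAP kinases and is itself an immediate early gene, had the largest difference of the list, with 14.00 with RA and 6.72 without RA. Bhlhe40, a helix-loop-helix repressor, had 12.22 with RA and 9.71 without RA, and Ier3, a survival gene of the stress response, was higher by 1.79.

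On the lower side, Rhob, a small GTPase of endosomes, had 6.50 with RA and 9.48 without RA. Klf4, a zinc finger factor of the epidermal barrier, differed by -2.66 and Btg1, an antiproliferative gene, by -1.81. The close relative Egr2 had 4.84 with RA and 4.86 without RA, near the negative control medians of 4.47 and 4.57. Its signal may be background, so a fall in Egr2 may not have been detectable. Egr3 and Egr4 did not reach the floor on either array. The values of Egr2, Egr3 and Egr4 are named because they are the family of Egr1. Immediate early genes as a class therefore showed no common direction on these arrays.

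**Figure D3:**
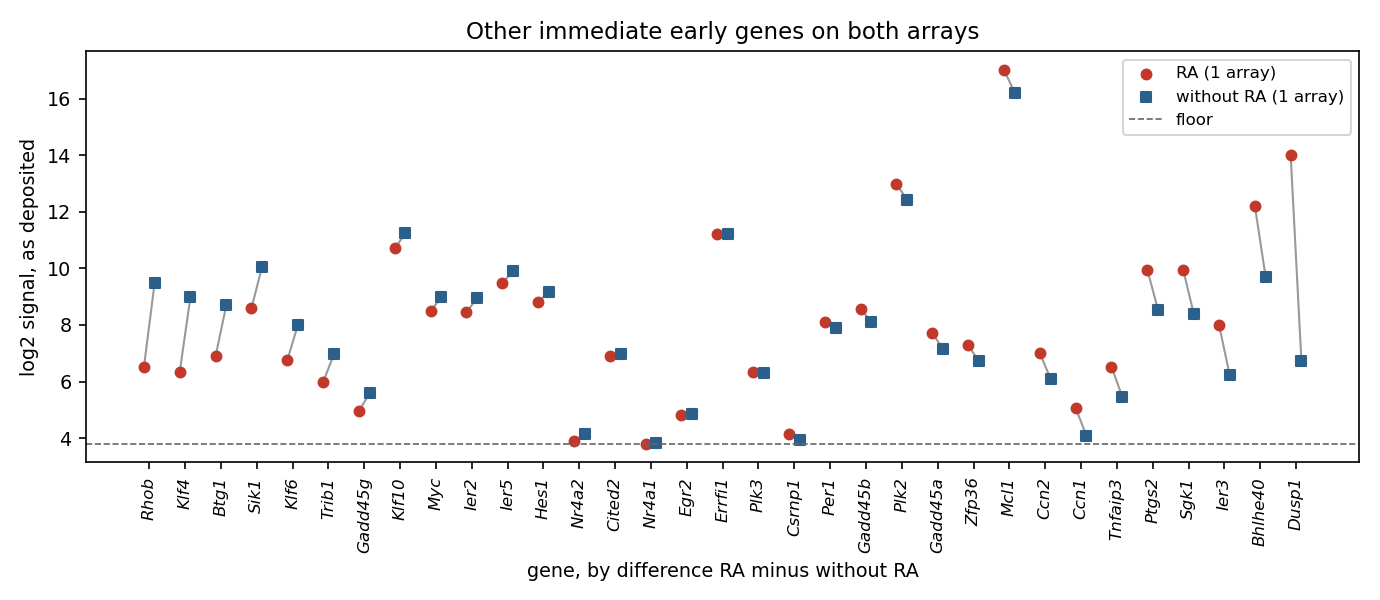
Log2 signal as deposited (vertical axis) of the 33 other immediate early genes above the floor, ordered by the difference RA minus without RA, with the RA array as red circles on the left and the array without RA as blue squares on the right of each pair. Rhob, Klf4 and Btg1 at the left end are lower with RA, and Dusp1 at the right end is higher by 7.28 log2 units.

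In the signalling chain that feeds AP-1 and Egr1, made up of MAP kinases, their upstream kinases and the serum response factors, 4 of 28 genes above the floor were higher with RA at 2-fold and 1 was lower. These are 14.3% and 3.57% of the list, beside 7.88% and 5.63% of all genes, and the median was -0.006. Rps6ka3, which codes for RSK2, a kinase of the growth factor response, had 11.49 with RA and 8.85 without RA. Map2k1, the MAP kinase kinase MEK1, was higher by 1.45, Mapk9, the Jun kinase JNK2, by 1.27 and Mapk13, a p38 kinase, by 1.21. Nras was lower, with a difference of -1.20.

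Of 15 genes whose products control AP-1 and EGR1 proteins or mRNAs, 0 were higher with RA at 2-fold and 3 were lower, with a median of 0.046. Their shares, 0% and 20%, stand beside 7.88% and 5.63% of all genes. Nab1, a corepressor that binds EGR1, had 7.56 with RA and 9.35 without RA, a difference of -1.79. Its relative Nab2, itself a known EGR1 target, had 5.67 with RA and 5.63 without RA. Tob1 and Sirt1, an antiproliferative factor and a deacetylase, differed by -1.39 and -1.24.

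Known AP-1 targets differed by group. Among 9 genes of epidermal differentiation with AP-1 elements described in their promoters or enhancers, mostly in human genes, 7 were lower with RA at 2-fold and 1 was higher, with a median of -4.08. As shares this is 77.8% lower and 11.1% higher, beside 5.63% and 7.88% of all genes. Sprr1a, among the 7, stood at the highest value of the table without RA (19.93), so its difference of -1.11 is a bound. Involucrin (Ivl), a cornified envelope precursor, had 7.08 with RA and 11.18 without RA. Loricrin, the main envelope protein, had 5.99 with RA and 10.06 without RA, and Sprr1b, Flg and Krt1 differed by -7.52, -7.17 and -14.20. S100a9, an alarmin, had 9.62 with RA and 5.69 without RA. RA is known to lower differentiation genes in keratinocytes, and the part of the members in these values was not tested.

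Of 27 measured AP-1 targets outside the cornified envelope, 20 were above the floor. Of these, 7 (35%) were higher with RA at 2-fold and 1 (5%) was lower, beside 7.88% and 5.63% of all genes. The list median was 0.15 as deposited and 0.20, 0.26 and 0.41 after median centring, quantile normalization and lowess. Il1a, an alarm cytokine, was higher by 8.94, Ccnd1 (cyclin D1) by 4.33, the collagenase gene Mmp13 by 4.11, Bcl2l11 (a promoter of apoptosis) by 2.51 and Vegfa by 2.28. Spp1 (osteopontin) had 6.32 with RA and 9.79 without RA.

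Of 7 EGR1 targets above the floor, 3 (42.9%) were higher with RA at 2-fold and 0 were lower, beside 7.88% and 5.63% of all genes. The 3 were Pdgfa, Vegfa and Tgfb1, higher by 2.35, 2.28 and 1.28. The list median was 0.84 as deposited and 0.52 to 0.56 under the other scalings. Median centring moved every difference up alike (Jun from -2.10 to -2.05). The lower median under it therefore reflects a change in which genes passed the floor. Igf2, with 3.79 with RA and 3.809 without RA, lay just under the floor as deposited. Vegfa and Tgfb1 are also in the AP-1 target list. In the list around ATF3 and the integrated stress response, 3 of 15 genes (20%) were higher with RA at 2-fold and 1 (6.67%) was lower. The median of this list was 0.51, or 0.83 after lowess. Asns, Hspa5 and Trib3 were higher by 2.22, 1.78 and 1.26, while Slc7a11 differed by -2.42. Ddit3, whose product pairs with ATF3 and was named after its value was seen, had 7.22 with RA and 6.47 without RA.

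**Figure D4:**
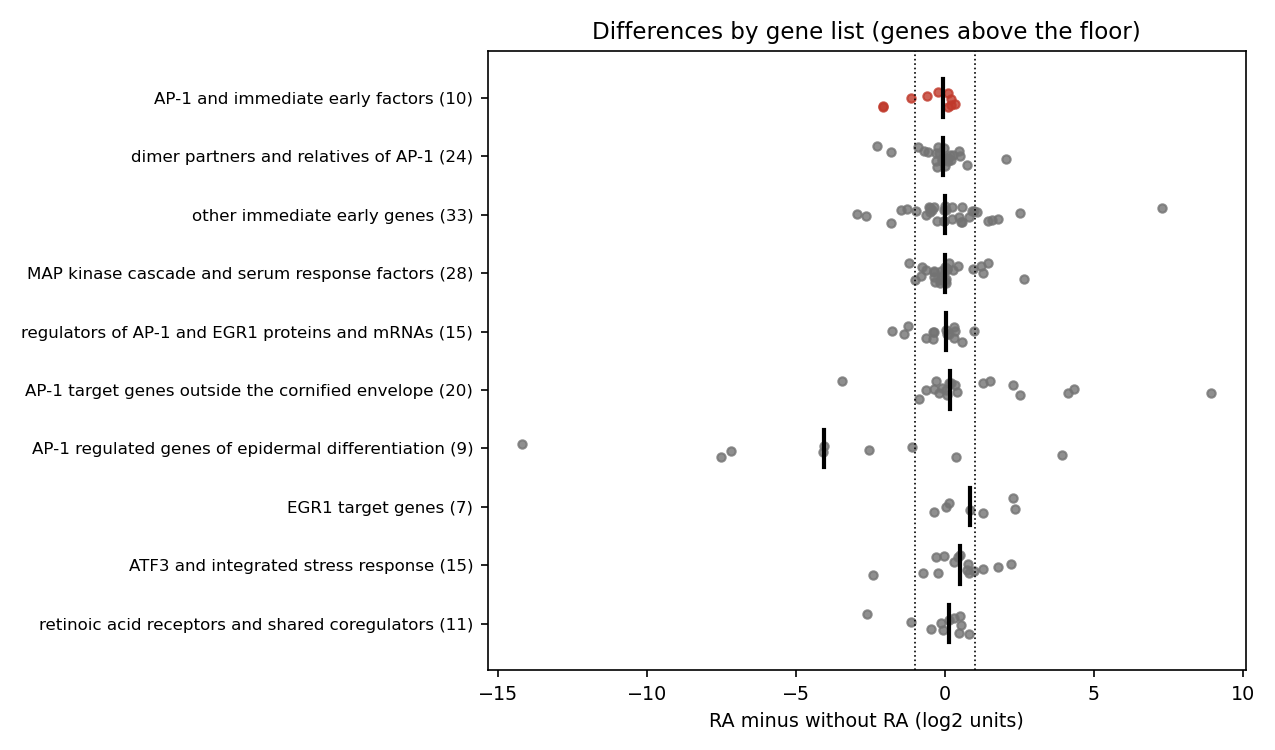
Difference RA minus without RA in log2 units (horizontal axis) of each gene above the floor in the members' list (red, top row) and 9 related lists (grey), with the number of genes in brackets, the list median as a black bar and dotted lines at 2-fold. The median of the epidermal differentiation list lies at -4.08, and those of the other lists lie between -0.07 and 0.84.

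A further list held the RA receptors, their partners of the Rxr family and the coregulators that they share with AP-1. At 2-fold, 0 of its 11 genes above the floor were higher with RA and 2 were lower, with a median of 0.12. The shares were 0% and 18.2%, beside 7.88% and 5.63% of all genes. Rxra, the common partner of RA receptors, had 8.16 with RA and 10.78 without RA, and Rara had 5.92 with RA and 7.07 without RA. The shared coactivator genes Crebbp and Ep300 had 8.90 and 7.85 with RA, against 9.38 and 7.73 without RA.

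The labelled cell type was checked against its markers. All 11 measured keratinocyte markers were above the floor, from 6.71 to 19.65 with RA and from 10.57 to 19.93 without RA, and 7 of them were lower with RA by 2-fold or more. Of 41 markers of fibroblasts, melanocytes, endothelium, immune cells, muscle and nerve or Merkel cells, 17 were above the floor, 1 was higher with RA by 2-fold or more (Cd68) and 3 were lower (Col3a1, Tek and Tubb3). Dcn, Lum, Pdgfra, Ptprc, Pecam1 and Tyr did not reach the floor on either array, but other markers of the same cell types did. With RA and without RA, Col3a1 had 4.90 and 7.03, Mitf 5.14 and 6.08 and Tek 6.38 and 7.72. Cd68 had 11.31 and 5.41, and Tubb3 had 7.38 and 11.60. The part of other cell types in the members' values was not tested.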

How the data were processed

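The data are 1 GeneChip array of cells with RA and 1 of cells without RA, labelled with the GeneChip WT PLUS kit per the labels' protocols. The authors deposited a table of log2 signals for 70580 probe sets. Per the submitters' processing notes it was made with RMA and the Transcriptome Analysis Console, whose versions are not given in the sources used here. The log2 base was read from the values. Depth does not apply to arrays, and their number limits the precision.

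Genes were named from the platform annotation: 23446 probe sets had 1 symbol, 505 several and 46629 none. Symbols were updated through RefSeq (22077 matched, 1 changed). The brightest probe set stood for a gene, and no member had several. Differences, list counts and medians and promoter matches were computed with pandas 2.3.3 and numpy 2.4.6 in Python 3.11.15, the lowess curve with statsmodels 0.14.6 and scipy 1.17.1, and figures with matplotlib 3.10.9. The counting was tested on simulated data.

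The members and lists were chosen with earlier results of these data known. Beyond the members, at most 6 genes per list were named, by size of difference among those of at least 1 log2 unit, with exceptions. Srf, Egr2, Egr3, Egr4, Nab2, Igf2, Ddit3, Crebbp and Ep300 were named with smaller differences. Sprr1a was named beyond the 6 of its list, and the cell type markers were named apart from this rule. The 4 genes nearest to the highest and the lowest member were named too, leaving out predicted genes. Alternatives were other scalings (median centring, lowess with span 0.2, quantile), probe set rules, floors and folds.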

Additional observations from a re-analysis of the deposited data

How the results depend on the processing

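No paired analysis was possible because there was a lone array on each side, and leaving out a replicate was equally impossible. Each of the 10 members kept the sign of its difference under 3 other scalings and with values raised to the floor. The 2 other probe set rules could not change a member, since each has 1 probe set. Jun ranged from -2.10 to -2.01, Egr1 from -2.12 to -1.95, Fosl2 from -1.14 to -1.05, Fos from -0.61 to -0.53 and Junb from 0.33 to 0.60. The median difference of the members was -0.61 with the floor at the 75th percentile of all values (5.45), because fewer members passed it, and turned to 0.011 after a lowess curve was removed. That lowess step moved the median of all genes from -0.026 to 0.075. The small medians of the lists of other immediate early genes and of the MAP kinase cascade turned above 0 under median centring (0.047 and 0.046), quantile normalization (0.048 and 0.0025) and lowess (0.11 and 0.079), and that of the AP-1 partners under lowess alone (0.00026). The other list medians kept their sign, and under lowess those of the regulators and of the RA receptors were 0.12 and 0.22. Which genes of a list passed the floor could change with the scaling, as among the EGR1 targets. The members that were lower numbered 3 at 2-fold under all scalings. As deposited they numbered 4 at 1.5-fold and 2 at 4-fold. Fold and scaling were also changed together, a choice made after seeing the data: at 1.5-fold 3 were then lower under each of the 3 scalings, and under lowess 1 was higher (Junb), while at 4-fold 1 was lower under lowess and 2 under the others. Signals near the floor, those of Fosb, Atf3 and Maff, limit what could be seen of these genes.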

Other observations

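Genes with an AP-1 element in their promoter window were counted as a description. Of 492 genes above the floor with the letters TGACTCA on either strand between 250 bases before and 50 after the start, 46 were higher with RA by 2-fold or more (9.35%) and 58 were lower (11.8%). Of all 11129 genes above the floor with a window, 7.99% were higher and 5.62% lower. The medians were -0.055 with the element and -0.021 over all windows. Of 346 genes with the cyclic AMP response element, 5.20% were higher and 4.34% lower, and of 172 with a CArG box 8.14% were higher and 5.81% lower. Of 113 genes with the EGR element GCGTGGGCG, 7.08% were higher and 9.73% lower. Its other form, GCGGGGGCG, was present in 524 genes, of which 9.35% were higher and 8.40% lower. For the TATA element, with 1052 genes, the shares were 5.89% higher and 7.89% lower. Genes that lie in clusters of copies share their promoter letters, and the part of base composition or of gene copies in these shares was not tested.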
